A study of Homo sapiens with 24 samples.

Results

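The data concern 8 transcription factors that mark columnar, intestinal or squamous identity in the oesophagus and its metaplasia: CDX2, HNF4A, GATA4, GATA6, FOXA2, SOX9, KLF5 and TP63. They were picked by symbol, and each symbol matched 1 of the 61860 Ensembl identifiers in 4 tables of raw RNA-seq read counts. All libraries came from OE33, a human line grown from an adenocarcinoma of the lower oesophagus that arose with Barrett metaplasia. The tables hold 4 experiments with 3 treated and 3 control libraries each, 24 libraries in all. In the diet experiment, OE33 cells were grown under the skin of male BALB/c-nu mice, bought at 4 weeks of age, kept for 8 weeks before injection on a normal diet (ND) or on a diet rich in fat (HFD), and killed 3 weeks after it. These athymic mice lack mature T cells, so the tumours grew without that arm of immunity. In the TRIM15 experiment, cultured OE33 cells carried an HA-TRIM15 plasmid (TRIM15-OE) or the empty vector (TRIM15-EV) for 48 h. In the knockdown experiments, cultured cells carried a hairpin against YY2 (YY2-sh) or a control hairpin (YY2-NC), or a hairpin against FOXRED1 (FOXRED1-sh) or a control hairpin of their own (FOXRED1-NC), each for 72 h. TRIM15 is a ubiquitin ligase, YY2 a zinc finger transcription factor related to YY1, and FOXRED1 an assembly factor of mitochondrial complex I. All 4 experiments thus shared 1 cell line, and no group held normal squamous or Barrett epithelium. No source used here says that the libraries of a group came from separate cultures, or from separate tumours or mice. The p-values therefore measure the spread between these libraries, which may be technical.

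Barrett metaplasia replaces the stratified squamous lining of the lower oesophagus with a columnar lining that carries gastric and intestinal features. GATA4, GATA6, FOXA2 and HNF4A belong to the factor network of foregut and intestinal endoderm. CDX2 drives intestinal fate, and SOX9 is expressed in progenitor cells of columnar glands and crypts. KLF5 supports proliferating epithelium and, like GATA6, is amplified in some adenocarcinomas of the oesophagus. TP63 is the master factor of squamous basal cells, and its loss goes with the columnar state.

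The reagents define what the knockdown groups are, so the targeted sequences of the listed hairpins are shown first. For each gene 2 hairpins are listed, and which of them the sequenced cells carried is not given in the sources used here. The targeted strand of each reads as follows, 5′ to 3′.
shYY2 #1: ccaggcattgatctctcagat
shYY2 #2: cctaacgataacaatgaccaa
shFOXRED1 #1: gcagttctcattgcctgagaa
shFOXRED1 #2: cccgctagttgtcaacatgta
Against the GENCODE 29 transcripts, the 21 bases of each FOXRED1 target matched FOXRED1 alone, and those of each YY2 target matched transcripts of YY2 and of MBTPS2, the gene in which YY2 lies. No transcript of the 8 factors held a full match, and the longest run they shared with any target was 9 bases. MBTPS2 fell by 0.43 ± 0.037 on the log2 scale (SE) in YY2-sh (adjusted p = 2.85e-08, edgeR's quasi-likelihood test). Of all genes tested there, 75% passed an adjusted p of 0.05, and 38.1% passed as lower. The part of the hairpin match in the fall of MBTPS2 was not tested.

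Library totals ran from 14299807 to 45994561 counts. The targeted genes followed their labels. TRIM15 had 111, 130 and 181 counts in the TRIM15-OE libraries and 0 in each TRIM15-EV library, YY2 had 11, 12 and 11 counts in YY2-sh against 43, 40 and 46 in YY2-NC, and FOXRED1 had 183, 207 and 129 counts in FOXRED1-sh against 322, 259 and 254 in FOXRED1-NC. All 8 markers of epithelium (EPCAM, CDH1 and keratins among them) were detected in each library, with a summed level of 10603 to 15940 CPM (counts scaled to a library of a fixed size). Of 16 markers of fibroblasts, vessels, leukocytes and fat, 8 to 12 had at most 3 counts in every library of a group. These are human genes, whereas host cells in the tumours would be of the mouse. Their low counts therefore do not measure the host cells of the xenografts. COL1A1, the collagen of fibroblasts, was the exception at 10.3 to 44.7 CPM, in cultured cells as well as tumours. It was at 42.3 to 44.7 CPM in YY2-sh against 10.3 to 10.9 in YY2-NC, 37.9 to 41.1 in FOXRED1-sh against 23.8 to 25.1 in FOXRED1-NC, 23.0 to 26.3 in HFD against 29.5 to 32.3 in ND, while the groups overlapped at 11.3 to 11.5 in TRIM15-OE and 11.1 to 12.2 in TRIM15-EV. The part of these genes in the results was not tested. Without it the list summed to 2.56 to 3.69 CPM in the xenografts and to 1.53 to 4.60 CPM in the cultured cells, with 4.19 to 4.60 in YY2-sh against 1.80 to 2.75 in YY2-NC. Bulk counts cannot tell fewer cells of a type from less RNA per cell.

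The factors moved in different directions in each experiment, and most of the changes were small. Under HFD, 6 of the 8 factors passed an adjusted p of 0.05, where 49.5% of all genes tested did: KLF5 and GATA6 were higher and CDX2, TP63, FOXA2 and SOX9 lower. In TRIM15-OE, 3 of the 7 factors tested passed, against 22.1% of all genes: GATA6 and KLF5 were higher and FOXA2 lower. In YY2-sh, 3 of 8 passed, against 75% of all genes: KLF5 and FOXA2 were higher and SOX9 lower. Without YY2-sh replicate 3 that count was 5, with CDX2 and GATA4 added. In FOXRED1-sh, 3 of the 6 tested passed, against 36.6% of all genes: FOXA2 was higher and GATA6 and SOX9 lower. With the replicate number as a block the last count was 5, since CDX2 and KLF5 also passed, both higher. With that block 6793 of the 15730 genes tested passed, in place of 5752. The share of all genes called is high in 3 of the 4 experiments, so the counts of factors called are read against it and not against 0. Treated and control libraries did not overlap for 56.2% of all genes under HFD and 37.7% in TRIM15-OE. The same held for 76.3% in YY2-sh and 46.7% in FOXRED1-sh, so groups lying apart are read against these shares.

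**Figure D1:**
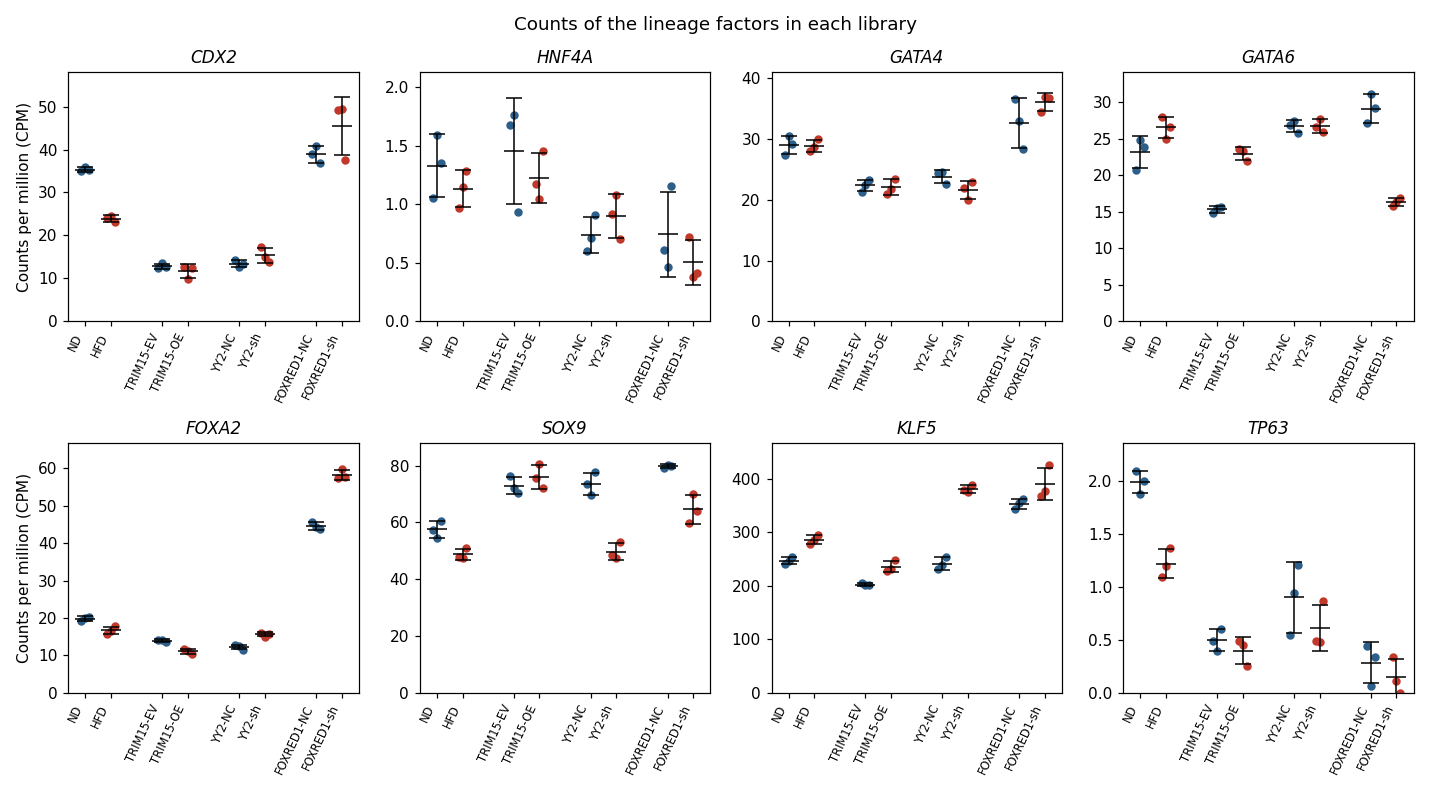
Scaled counts (CPM, y axis, from 0) of the 8 factors in the 24 libraries, scaled within each experiment; blue points are control and red points treated libraries, and bars give the mean and SD of 3. CDX2 separates HFD from ND, GATA6 separates TRIM15-OE and FOXRED1-sh from their controls in opposite directions, and HNF4A and TP63 stay near or under 2 CPM.

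**Figure D2:**
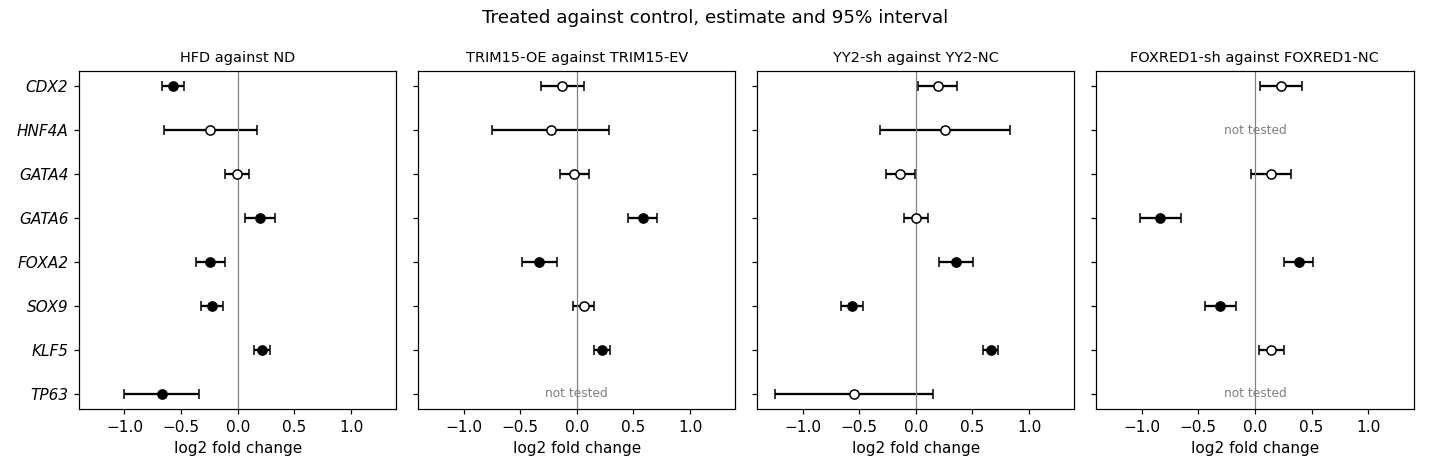
log2 fold change (x axis, treated over control) of each factor in the 4 comparisons, with bars of 1.96 SE either way. The bars are 95% intervals by a normal approximation only and are narrower than edgeR's test implies. Filled points passed an adjusted p of 0.05, and open points did not. KLF5 points lie right of 0 in each panel, SOX9 points lie left of 0 except in TRIM15-OE, and GATA6 runs from -0.83 in FOXRED1-sh to 0.58 in TRIM15-OE.

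GATA6, a zinc finger factor of endoderm, lies at chr18:22169443-22202528 on the plus strand (GRCh38, GENCODE 29, which also gives the positions of the other factors). In TRIM15-OE its 3 libraries had 23.5, 23.3 and 21.9 CPM, and the TRIM15-EV libraries had 14.8, 15.5 and 15.7 CPM. The TRIM15-OE libraries were thus all above the controls and close to each other. The level was 1.49-fold higher, a log2 change of 0.58 ± 0.067 (SE; adjusted p = 2.43e-05, edgeR). FOXRED1-sh showed the opposite, with 15.8, 16.3 and 16.9 CPM against 27.1, 31.1 and 29.2 CPM in FOXRED1-NC. Here every knockdown library lay far under the lowest control, and GATA6 fell 1.78-fold (log2 change -0.83 ± 0.093, adjusted p = 2.02e-06), the widest change of any factor in any experiment. YY2-sh had 26.5, 27.7 and 25.9 CPM and YY2-NC 26.9, 27.5 and 25.8 CPM, so the groups overlapped throughout. The log2 difference was 0.00098, with an interval (1.96 SE) of -0.11 to 0.11. Under HFD the tumours had 27.9, 25.0 and 26.7 CPM, and under ND 20.6, 24.9 and 23.9 CPM. The lowest HFD library stood just above the highest ND library, and the log2 change of 0.19 ± 0.069 (adjusted p = 0.0276) missed the threshold without HFD replicate 1 (adjusted p = 0.108), HFD replicate 3 (0.0689) or ND replicate 1 (0.118).

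The sequence before the start of GATA6 is shown because GATA6-AS1, a long non-coding RNA that runs the other way, has exon sequence there. It covers chr18:22169339-22169442, the plus strand of GRCh38.p14 from RefSeq's promoter table, and ends 1 base before the start that GENCODE gives GATA6. Capitals mark the 34 bases inside exons of GATA6-AS1.
GATA6 upstream: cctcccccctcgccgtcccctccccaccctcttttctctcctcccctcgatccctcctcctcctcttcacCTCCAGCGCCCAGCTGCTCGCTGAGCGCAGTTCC
Exons of GATA6-AS1 also overlap those of GATA6. The labels name a kit that marks strand and the study's methods one that does not, so reads of the pair may not have been told apart. In YY2-sh, where the groups overlapped in GATA6 itself, GATA6-AS1 had 18, 25 and 32 counts against 8, 7 and 11 in YY2-NC. The groups were far apart on low counts, a 3.04-fold rise (log2 change 1.60 ± 0.29, adjusted p = 0.000118). In the other experiments GATA6-AS1 stayed at 4 to 23 counts. Its log2 change was 0.30 (adjusted p = 0.413) under HFD and 0.18 (adjusted p = 0.802) in TRIM15-OE, and it was too low to be tested in the FOXRED1 experiment.

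GATA4, the close relative of GATA6, lies at chr8:11676959-11760002 on the plus strand. It did not pass in any of the 4 comparisons. HFD tumours had 28.1, 28.7 and 30.0 CPM and ND tumours 27.5, 30.5 and 29.1 CPM, values that interleave. The log2 difference was -0.0067 with an interval of -0.11 to 0.10 under HFD, and -0.024 with an interval of -0.15 to 0.11 in TRIM15-OE. In YY2-sh it was -0.14 ± 0.066 (adjusted p = 0.0748; 0.0445 without YY2-sh replicate 3 and 0.0260 without YY2-NC replicate 3), and in FOXRED1-sh 0.14 ± 0.090 (adjusted p = 0.239). The GATA pair therefore differed: wherever GATA6 passed, GATA4 did not, though the difference between the paralogs was not itself tested.

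FOXA2, a forkhead factor that opens chromatin in endoderm, lies at chr20:22581005-22585455 on the minus strand and shares exon sequence with AL121722.1 on the same strand, so its reads may be split between them. It was the only factor that passed in all 4 comparisons. HFD tumours had 15.7, 16.4 and 17.7 CPM and ND tumours 19.0, 20.0 and 20.3 CPM. TRIM15-OE had 11.7, 11.1 and 10.2 CPM against 14.2, 14.0 and 13.6 CPM in TRIM15-EV. In both experiments all treated libraries lay under all controls, by 0.24 ± 0.066 (adjusted p = 0.00565) and 0.33 ± 0.080 (adjusted p = 0.00899) on the log2 scale, or 1.18-fold and 1.26-fold. The knockdowns went the other way. YY2-sh had 16.0, 15.0 and 15.7 CPM against 12.6, 12.5 and 11.5 CPM in YY2-NC, and FOXRED1-sh had 57.4, 59.9 and 57.6 CPM against 45.7, 44.2 and 43.9 CPM in FOXRED1-NC. The groups were apart again, with rises of 1.28-fold (log2 change 0.36 ± 0.077, adjusted p = 0.000613) and 1.31-fold (0.39 ± 0.066, adjusted p = 0.000187). LINC00261, the non-coding neighbour of FOXA2, was tested only in the FOXRED1 experiment, with a log2 change of 0.23 ± 0.26 (adjusted p = 0.536).

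CDX2, the homeobox factor of intestinal fate, lies at chr13:27962137-27971139 on the minus strand and overlaps no other annotated gene. Its clearest change came with diet. HFD tumours had 24.0, 24.6 and 23.1 CPM, and ND tumours 34.9, 35.9 and 35.1 CPM. The 3 values of each group nearly coincided and the groups lay far apart, 23.9 ± 0.785 against 35.3 ± 0.520 CPM (SD, n = 3 libraries each). CDX2 was 1.49-fold lower under HFD (log2 change -0.57 ± 0.050, adjusted p = 8.72e-08), and without any 1 library the change stayed between -0.59 and -0.54. TRIM15-OE had 12.8, 9.95 and 12.5 CPM and TRIM15-EV 12.4, 13.5 and 12.7 CPM, with the lowest value in TRIM15-OE replicate 2 and the rest overlapping (log2 change -0.13 ± 0.095, adjusted p = 0.378). The knockdowns leaned upward. YY2-sh had 17.3, 15.1 and 13.9 CPM against 14.3, 12.6 and 13.4 CPM (0.19 ± 0.090, adjusted p = 0.0660), and FOXRED1-sh had 49.2, 49.4 and 37.6 CPM against 39.0, 40.7 and 36.9 CPM (0.23 ± 0.094, adjusted p = 0.0668). In FOXRED1-sh the first 2 libraries stood well above the controls and replicate 3 among them: without that library the log2 change was 0.34 (adjusted p = 0.000162). With the replicate block its adjusted p there was 0.00994. In YY2-sh, CDX2 passed without YY2-sh replicate 3 (adjusted p = 0.0205).

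HNF4A, a nuclear receptor of intestine and liver, lies at chr20:44355700-44434596 on the plus strand and was near the limit of detection. It had 6 to 76 counts in a library, or 0.379 to 1.76 CPM. HFD tumours had 22, 21 and 49 counts and ND tumours 28, 76 and 29, in libraries of unequal depth. On the CPM scale the groups of each experiment overlapped. The log2 changes were -0.24 ± 0.21 under HFD (adjusted p = 0.358), -0.23 ± 0.26 in TRIM15-OE (0.586) and 0.26 ± 0.29 in YY2-sh (0.449), and the gene was too low to be tested in the FOXRED1 experiment. The interval of the last reaches 0.83, so this depth leaves room for a change as large as any seen for GATA6. Counts per gene also cannot separate the forms made from its early and late promoters. HNF4A-AS1 had 0 counts in all 24 libraries.

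SOX9, the HMG box factor of progenitor cells, lies at chr17:72121020-72126420 on the plus strand. It fell in 3 of the 4 comparisons. YY2-sh had 48.6, 47.4 and 53.2 CPM against 73.4, 69.6 and 77.7 CPM in YY2-NC, with a wide gap between the groups. This was a 1.48-fold decrease (log2 change -0.56 ± 0.050, adjusted p = 4.81e-08). FOXRED1-sh had 59.8, 70.0 and 64.1 CPM against 79.1, 80.4 and 80.0 CPM. The controls hardly varied and the knockdown libraries, though spread, all lay under them (1.23-fold, -0.30 ± 0.068, adjusted p = 0.00189). HFD tumours had 47.7, 47.6 and 51.0 CPM and ND tumours 57.4, 54.6 and 60.7 CPM, again without overlap (1.17-fold, -0.23 ± 0.048, adjusted p = 0.000971). TRIM15-OE had 75.7, 80.5 and 72.1 CPM and TRIM15-EV 76.4, 72.3 and 70.5 CPM, which overlapped (0.060 ± 0.047, adjusted p = 0.400).

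SOX9-AS1, an antisense RNA whose gene overlaps SOX9 without sharing exon sequence in GENCODE 29, rose in YY2-sh, where SOX9 fell, and fell with SOX9 in FOXRED1-sh and under HFD. It had 112, 112 and 148 counts in YY2-sh against 51, 43 and 58 in YY2-NC, with no overlap and a 2.60-fold rise (log2 change 1.38 ± 0.13, adjusted p = 1.06e-07). In FOXRED1-sh it had 37, 39 and 28 counts against 60, 43 and 60, a log2 change of -0.74 ± 0.23 (adjusted p = 0.0168). Under HFD the log2 change was -0.44 ± 0.15 (adjusted p = 0.0243), and in TRIM15-OE it was -0.36 ± 0.18 (adjusted p = 0.165).

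**Figure D3:**
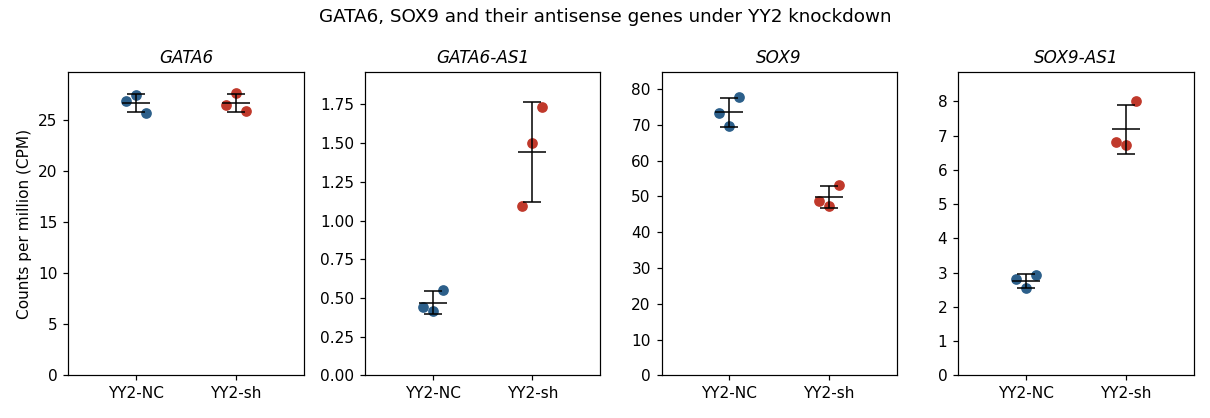
Scaled counts (CPM, y axes, from 0, each panel with its own scale) of GATA6, SOX9 and their antisense genes in the 3 YY2-NC (blue) and 3 YY2-sh (red) libraries, with mean and SD. GATA6-AS1 and SOX9-AS1 are higher in every YY2-sh library, while GATA6 overlaps its controls and SOX9 lies under them.

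KLF5, a zinc finger factor of proliferating epithelium, lies at chr13:73054976-73077542 on the plus strand, overlaps no annotated gene and was the most abundant of the 8. Its mean was higher in the treated group of each experiment and passed in 3 of them. YY2-sh had 379.7, 375 and 389 CPM against 231, 239 and 254 CPM in YY2-NC. All YY2-sh libraries stood far above the controls, a 1.58-fold rise (log2 change 0.66 ± 0.035, adjusted p = 6.68e-11). HFD tumours had 278, 285 and 296 CPM and ND tumours 241, 246 and 253 CPM. TRIM15-OE had 228, 231 and 248 CPM against 205, 201 and 201 CPM. Neither pair of groups overlapped, as for 56.2% of all genes under HFD and 37.7% in TRIM15-OE. The rises were similar in size, 1.16-fold under HFD (0.22 ± 0.036, adjusted p = 0.000113) and 1.17-fold in TRIM15-OE (0.22 ± 0.036, adjusted p = 0.000616). FOXRED1-sh had 368, 377 and 425 CPM against 344, 354 and 362 CPM. The groups did not overlap, as for 46.7% of all genes in that experiment, yet the log2 change of 0.14 ± 0.056 just missed the threshold (adjusted p = 0.0540). With the replicate block it was 0.14 ± 0.036 (adjusted p = 0.00253), and without FOXRED1-sh replicate 1 it was 0.19 (adjusted p = 0.0273).

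KLF5 has 2 starts in RefSeq's promoter table, and the 250 bases before the outer one are shown because KLF5 rose the most in the YY2 knockdown and this window holds no annotated UTR. It covers chr13:73054726-73054975 on the plus strand of GRCh38.p14, and capitals mark the only match to the motifs searched, TTTATNG of the CDX family, read on the minus strand.
KLF5 upstream: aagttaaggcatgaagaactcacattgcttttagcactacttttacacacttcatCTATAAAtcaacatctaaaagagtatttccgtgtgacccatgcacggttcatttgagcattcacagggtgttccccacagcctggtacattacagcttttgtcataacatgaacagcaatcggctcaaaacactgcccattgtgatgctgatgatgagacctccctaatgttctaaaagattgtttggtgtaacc
The table held 5 of the 8 factors, with 2 starts each for KLF5 and HNF4A, and 5 motifs were searched on both strands in the 250 bases before each start: GCCAT of the YY family, AGATAA of the GATA family, TGTTTAC of the forkhead family, TTTATNG of the CDX family and CCACCC of the KLF family. GCCAT stood in 29.4% of all 35116 windows of that length and, among the factors, in the outer HNF4A window alone, at 2 places. AGATAA stood in 9.17% of all windows and in those of CDX2 and HNF4A. TGTTTAC stood in 2.98% of all windows and in that of CDX2, and TTTATNG stood in 8.93% and in those of CDX2 and KLF5. CCACCC stood in 31.3% of all windows, in both HNF4A windows and in that of GATA6. The windows differed in base content as well, with 40.8% G and C at the outer start of KLF5 and 70.8% at its inner start, where 27 CG pairs stood. The CDX2 start in that table lies inside the gene as GENCODE places it, so the CDX2 matches are not upstream of the GENCODE start. The base of its window farthest from that start falls in an annotated UTR. The inner KLF5 start also lies inside its gene, and that window and the GATA6 window fall partly in annotated UTRs. A match is a run of letters and not a measured site, and these windows were not tested for binding.

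TP63, the squamous basal factor, lies at chr3:189631416-189897279 on the plus strand and was barely expressed. It had 0 to 90 counts in a library. HFD tumours had 25, 22 and 52 counts, or 1.10, 1.202 and 1.36 CPM, and ND tumours 56, 90 and 43 counts, or 2.10, 1.88 and 2.00 CPM. Once scaled for depth all HFD libraries lay under all ND libraries, a 1.59-fold decrease (log2 change -0.67 ± 0.17, adjusted p = 0.00356). YY2-sh had 8, 8 and 16 counts against 10, 16 and 24, which overlapped (-0.55 ± 0.35, adjusted p = 0.175; 0.0485 without YY2-NC replicate 1). The gene was too low to be tested in the TRIM15 experiment, at 4 to 16 counts, and in the FOXRED1 experiment, at 0 to 8 counts. Counts per gene do not separate the TA form from the shorter ΔN form that squamous cells use.

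The responses to the knockdowns were compared in 1 fit of 12 libraries, in which the scaling is shared, for the 6 factors tested in each. Their difference passed for 3 of the 6, against 54.4% of all genes. GATA6 differed most: its YY2 effect exceeded its FOXRED1 effect by 0.83 ± 0.10 on the log2 scale (adjusted p = 4.79e-07). KLF5 followed, by 0.52 ± 0.069 (adjusted p = 1.53e-06), and the fall of SOX9 was deeper in YY2-sh by 0.26 ± 0.086 (adjusted p = 0.0140), which missed the threshold without YY2-NC replicate 3 (adjusted p = 0.0562) or FOXRED1-sh replicate 2 (0.0657), and with no filter on counts (0.0528). For FOXA2, which rose in both, the difference was -0.032 with an interval of -0.22 to 0.15, and for CDX2 it was -0.039 with an interval of -0.32 to 0.24. The difference for GATA4 was -0.28 ± 0.12 (adjusted p = 0.0519) and passed without YY2-NC replicate 3 (0.0459), FOXRED1-sh replicate 1 (0.0387) or FOXRED1-NC replicate 1 (0.00956).

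The diet and TRIM15 effects were compared in the same way for the 7 factors tested in each. Here 3 of the 7 differed, against 35.2% of all genes. The diet effect was lower than the TRIM15 effect by 0.41 ± 0.10 on the log2 scale for CDX2 (adjusted p = 0.00315), by 0.36 ± 0.098 for GATA6 (adjusted p = 0.00735) and by 0.26 ± 0.070 for SOX9 (adjusted p = 0.00719). For KLF5, which rose in both, the difference was 0.025 with an interval of -0.076 to 0.13, and for FOXA2, which fell in both, 0.12 with an interval of -0.080 to 0.31. For GATA4 it was 0.049 (-0.12 to 0.21), and for HNF4A 0.019 with the wide interval of -0.66 to 0.70.

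Levels were compared between the 4 control groups as RPKM (CPM divided by the exon length in kilobases), with 1 scaling over the 24 libraries. The controls are 1 line in 4 settings, and the experiment cannot be told apart from the condition of its controls. Of the 48 factor-by-pair differences, 38 passed, where 36.3% (TRIM15-EV against YY2-NC), 62% (ND against YY2-NC), 67.9% (ND against TRIM15-EV), 68.5% (YY2-NC against FOXRED1-NC), 69.2% (ND against FOXRED1-NC) and 71.7% (TRIM15-EV against FOXRED1-NC) of all genes did. KLF5 stood first in each group and within percentiles 96.0 to 98.4 of 18154 protein-coding genes. SOX9 came next, at percentiles 82.0 to 87.3, and HNF4A and TP63 came last, at percentiles 24.7 to 34.4.

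**Figure D4:**
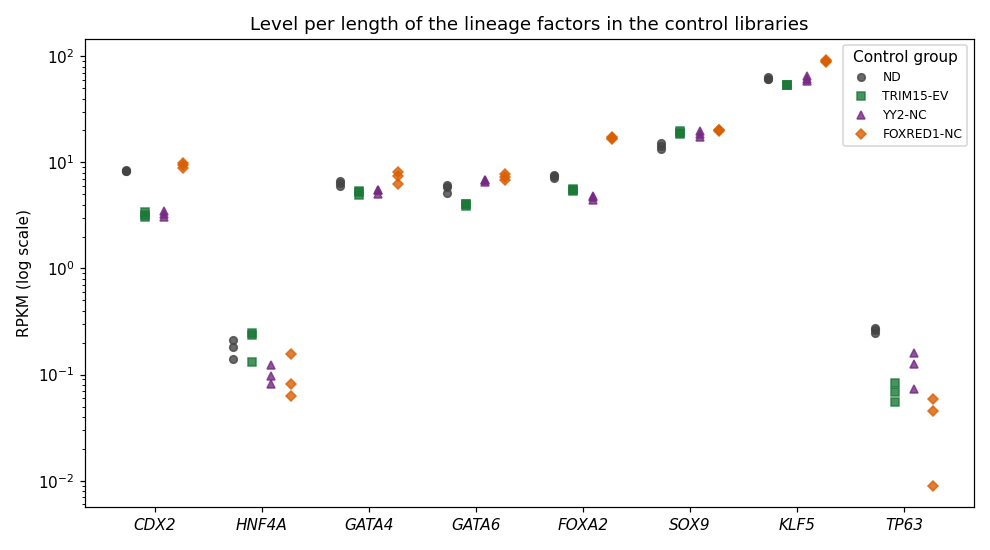
Level of each factor in the 12 control libraries, in RPKM on a log axis; each point is 1 library, and shape and colour give the control group. FOXA2 and KLF5 are highest in FOXRED1-NC, CDX2 splits into a higher pair of groups (ND, FOXRED1-NC) and a lower pair (TRIM15-EV, YY2-NC), and TP63 is highest in ND.

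FOXA2 separated all 4 control groups. FOXRED1-NC had 17.0 ± 0.378 RPKM (SD, n = 3), ND 7.42 ± 0.240, TRIM15-EV 5.51 ± 0.118 and YY2-NC 4.65 ± 0.232, and each neighbour in that order differed from the next (adjusted p = 2.35e-15, 3.23e-06 and 0.00822). The control-hairpin cultures of the knockdown experiments thus differed 3.67-fold in FOXA2, more than FOXA2 changed in either knockdown. CDX2 had 9.38 ± 0.502 RPKM in FOXRED1-NC and 8.37 ± 0.0948 in ND (adjusted p = 0.00498), but 3.24 ± 0.208 in YY2-NC and 3.21 ± 0.145 in TRIM15-EV, which did not differ beyond their spread (adjusted p = 0.919). The control hairpins differed 2.90-fold in CDX2.

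KLF5 had 90.2 ± 2.14 RPKM in FOXRED1-NC, 61.9 ± 1.54 in ND, 61.5 ± 3.03 in YY2-NC and 53.5 ± 0.584 in TRIM15-EV, and only ND and YY2-NC were neighbours that did not differ (adjusted p = 0.749). GATA6 had 7.34 ± 0.511 RPKM in FOXRED1-NC and 6.72 ± 0.212 in YY2-NC, which did not differ beyond their spread (adjusted p = 0.120), then 5.73 ± 0.533 in ND and 4.00 ± 0.127 in TRIM15-EV. The low level in the empty-vector cells is the one that TRIM15-OE was set against, and TRIM15-OE, at 5.97 ± 0.235 RPKM, stood within the range of the other controls. GATA4 ran from 7.29 ± 0.933 RPKM in FOXRED1-NC through 6.38 ± 0.318 in ND and 5.32 ± 0.248 in YY2-NC to 5.18 ± 0.226 in TRIM15-EV, with the last 2 not apart (adjusted p = 0.791).

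Among the cultured controls SOX9 stood at 20.2 ± 0.216 RPKM in FOXRED1-NC, 19.1 ± 0.770 in TRIM15-EV and 18.6 ± 1.04 in YY2-NC (adjusted p = 0.145 and 0.544 between neighbours, but 0.0339 between FOXRED1-NC and YY2-NC), and it was lower in the ND tumours, at 14.3 ± 0.797 (adjusted p = 6.96e-08 against YY2-NC). TP63 was highest in those tumours, at 0.261 ± 0.0149 RPKM against 0.120 ± 0.0443 in YY2-NC (adjusted p = 0.00123), 0.0685 ± 0.0141 in TRIM15-EV and 0.0376 ± 0.0258 in FOXRED1-NC. HNF4A had 0.205 ± 0.0637 RPKM in TRIM15-EV and 0.178 ± 0.0357 in ND (adjusted p = 0.560), and 0.101 ± 0.0492 in FOXRED1-NC and 0.1004 ± 0.0209 in YY2-NC (adjusted p = 0.965).

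Genes of the surrounding pathways were taken from 5 lists. Among the 24 other columnar factors, 17 were tested under HFD, with 6 higher and 3 lower, where 25.6% of all genes were higher and 23.9% lower. ONECUT2, a cut-homeobox factor of liver and gut, rose 2.31-fold at a low level (0.887 to 2.08 CPM). SPDEF, the goblet cell factor, rose 1.92-fold (1.53 to 2.97 CPM). NR5A2 fell 1.64-fold, and FOXA1, the sister of FOXA2, fell 1.21-fold with it. Of 17 squamous factors 15 were tested, with 5 higher and 8 lower. SOX2, the partner of TP63 in squamous cells, fell the most, 2.79-fold from 5.07 ± 0.303 to 1.83 ± 0.279 CPM (adjusted p = 1.32e-07), and SOX21 fell 1.63-fold, while TFAP2A rose 1.27-fold. The median log2 change of the squamous factors was -0.26, against -0.012 for all genes tested.

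The differentiation genes did not divide by lineage under HFD. Of 48 columnar genes 26 were tested, with 9 higher and 9 lower, again beside 25.6% and 23.9% of all genes. ANPEP, a brush border peptidase, rose 2.17-fold and SERPINA1 1.95-fold, and the mucin genes MUC13 and MUC5AC fell 2.13-fold and 1.70-fold. Of 43 squamous genes 33 were tested, with 11 higher and 14 lower. The basal and stress keratins KRT6A and KRT14 rose 2.92-fold and 2.35-fold, KRT14 from 1.74 to 4.02 CPM. Reads of KRT6A are uncertain, since it shares long stretches with KRT6B and KRT6C. ECM1 fell 1.83-fold, from 3.29 to 1.77 CPM, and SPRR1A, of the cornified layer, fell 1.70-fold. Of 40 genes of the BMP, Hedgehog, WNT, Notch and retinoid pathways 31 were tested, with 15 higher and 8 lower. RNF43, a WNT inhibitor, fell 2.61-fold and BMP4, a ligand long tied to columnar fate, 1.45-fold, while DLL4 and CYP26B1 rose 1.71-fold and 1.76-fold.

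In TRIM15-OE, more genes of the squamous lists rose than fell. Of the 14 squamous factors tested 5 were higher and 1 lower, led by KLF4 (1.53-fold) and PRDM1 (1.48-fold), both of differentiating layers. Of 30 squamous genes 11 were higher and 1, EVPL, lower. The keratins KRT14 and KRT17 rose 2.74-fold and 2.63-fold, KRT14 from 1.85 to 5.08 CPM and KRT17 from 41.1 ± 1.57 to 107 ± 8.05 CPM. All genes tested had 12.5% higher and 9.53% lower. Of 15 other columnar factors 2 rose, the epithelial ETS factors ELF3 (1.38-fold) and EHF (1.11-fold). Of 21 columnar genes 5 were higher and 4 lower, with CEACAM5 up 1.55-fold, AGR2 up 1.36-fold and KRT18 and ANPEP down 1.13-fold and 1.17-fold. Of 29 signal genes 5 were higher and 9 lower, 14 in all, a count that was 7 or 8 without TRIM15-OE replicate 2 or 3 or any 1 TRIM15-EV library. The Notch target HES1 rose 1.47-fold and BMP2 1.32-fold, and BMP4 and the BMP target ID1 fell 1.30-fold and 1.23-fold.

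In YY2-sh, more squamous factors rose than fell, and more squamous genes fell than rose. Of 15 squamous factors 9 were higher and 2 lower. TFAP2A rose 3.01-fold and ZNF750 2.83-fold, the latter from 0.920 to 2.62 CPM. BARX2 fell 2.64-fold, from 4.21 to 1.58 CPM, and TP73, the paralog of TP63, 1.39-fold. Of 31 squamous genes 7 were higher and 19 lower. KRT6A fell 14.1-fold, from 13.8 ± 0.654 to 0.980 ± 0.472 CPM (adjusted p = 1.55e-11). IVL, which encodes involucrin, fell 7.66-fold from a low level (4.95 to 0.645 CPM), while KRT16 and PPL rose 1.83-fold and 1.79-fold. As under HFD, reads of KRT6A are uncertain, because it shares long stretches with KRT6B and KRT6C. Over all genes 36.8% were higher and 38.1% lower. Of 16 other columnar factors 8 were higher and 3 lower (7 in all without YY2-NC replicate 3). PROX1 rose 7.59-fold from a low level (0.807 to 6.12 CPM). ELF3 rose 2.47-fold, from 304 ± 7.09 to 751 ± 15.5 CPM, and MYB fell 2.22-fold. Of 22 columnar genes 9 were higher and 11 lower. MUC13 and CDHR2 rose 3.28-fold and 2.39-fold, CDHR2 from 0.857 to 2.09 CPM. The gastric genes TFF1 and ANXA10 fell 4.70-fold and 3.17-fold. TFF1 was at a low level (2.03 to 0.434 CPM), while ANXA10 went from 102 to 32.1 CPM. Of 30 signal genes 14 were higher and 8 lower, with ID2 and PTCH1 up 3.11-fold and 3.04-fold and the Notch ligand JAG1 down 1.64-fold.

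In FOXRED1-sh, columnar genes moved both ways. Of 26 columnar genes 8 were higher and 10 lower, against 16.8% and 19.7% of all genes. MUC5AC, the mucin of gastric surface cells, rose 1.92-fold from 138 ± 5.67 to 265 ± 13.8 CPM (adjusted p = 1.56e-09) and MUC1 2.28-fold. At low levels, ANPEP fell 3.93-fold (3.71 to 0.921 CPM) and VSIG1 3.00-fold (4.53 to 1.52 CPM). Of 17 other columnar factors 2 were higher and 5 lower, 4 in all without FOXRED1-NC replicate 1. ELF3 rose 1.42-fold and FOXA1 1.12-fold beside FOXA2, and MYB and EHF fell 1.77-fold and 1.39-fold. Of 13 squamous factors 3 were higher and 2 lower (3 in all without FOXRED1-sh or FOXRED1-NC replicate 1), with GRHL3 and KLF4 up 1.27-fold each and SOX21 and PRDM1 down 1.37-fold and 1.24-fold. Of 22 squamous genes SPRR1A alone was higher (1.33-fold) and 6 were lower, SCEL 4.19-fold and the desmosomal cadherin DSC3 2.37-fold. Of 32 signal genes 9 were higher and 4 lower (20 in all without FOXRED1-sh replicate 3), with the WNT target AXIN2 up 1.84-fold, DLL4 up 1.65-fold and JAG1 down 1.88-fold.

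**Figure D5:**
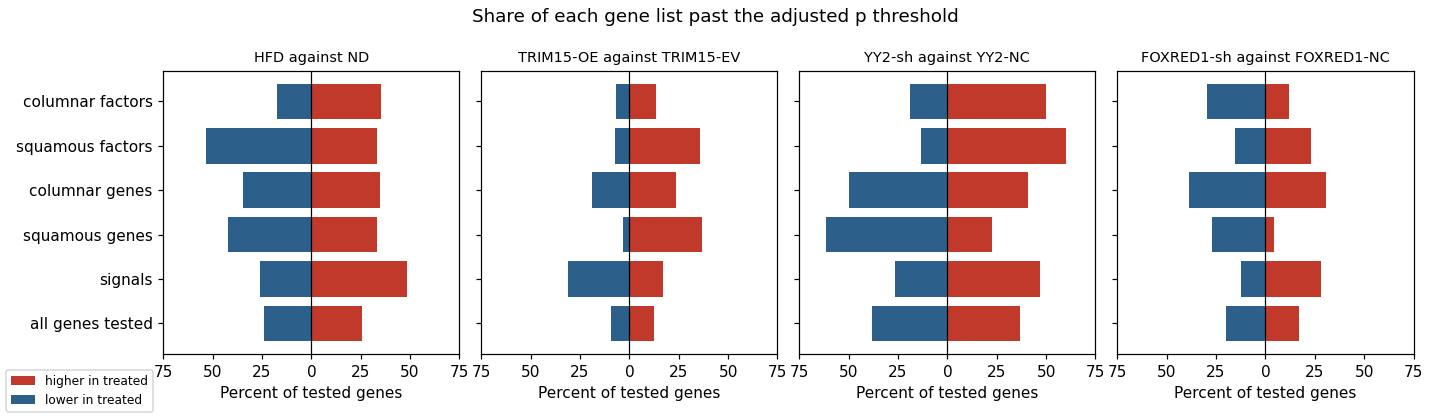
Percent of the tested genes of each list (x axis) that passed an adjusted p of 0.05 in the 4 comparisons, with higher in treated to the right and lower to the left; the lowest bar of each panel gives all genes tested. The squamous genes lean right in TRIM15-OE (11 higher, 1 lower) and left in YY2-sh (7 higher, 19 lower), where all genes are nearly balanced.

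Genes whose log2 CPM, less the mean of the experiment, most resembled that of a factor over the 24 libraries were named for the 7 factors with a mean of at least 1 CPM. The likeness is a Pearson correlation that treated and control groups set in part. For KLF5 these were JMY (0.982), RNF24 (0.979) and PTBP3 (0.975). For SOX9 they were WDR82 (0.949), MIR31HG (0.942) and TFDP1 (0.942), and for FOXA2 RGL3 (0.937), GIGYF1 (0.932) and JADE2 (0.929). GATA6 was most like PELI1 (0.926), PMAIP1 (0.919) and NET1 (0.917), and CDX2 like EPN3 (0.888), GNPTG (0.888) and ANXA9 (0.881). The values were lower for GATA4, with GPS2 (0.754), SHLD1 (0.751) and MIR4292 (0.698), and for HNF4A, with FMR1-IT1 (0.664), CYTOR (0.647) and ADNP-AS1 (0.625), where counting noise was large.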

How the data were processed

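RNA-seq libraries were grouped by sample title and treatment label, 8 groups of 3. Each of the 4 deposited tables gives raw, unnormalized counts per gene for 1 experiment. The submitters' processing notes name the builds hg38 and mm10. How mouse reads of the xenografts were handled, and which aligner, counter and annotation were used, is not given in the sources used here. In the TRIM15 table the header has empty cells, so columns were taken by number. The files pair identifiers with no names: 68.0% were named by an identifier table, and 94.3% had an exon length in GENCODE 29.

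Each experiment was tested alone with edgeR 4.0.16 (R 4.3.3): filterByExpr (minimum count 10, total 15), TMM scaling, quasi-likelihood fit, Benjamini-Hochberg over all genes tested. SE is the log2 fold change divided by the root of F. Intervals span 1.96 SE either way, 95% by a normal approximation, and edgeR's test implies wider ones. For CDX2 in YY2-sh the interval ran from 0.015 to 0.37, while the unadjusted p of edgeR's test was 0.0504. Control groups and effect differences used 1 fit of 12 libraries. CPM were scaled within an experiment, and RPKM over all 24 libraries. An exact permutation test of 3 against 3 cannot go below p = 0.1, so none was used for single genes. The steps were also run on simulated counts in which far fewer genes changed than were called in these experiments. That run does not cover changes this widespread.

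The numbers of replicates were checked for pairing: the correlation of deviations from group means between same-numbered FOXRED1 libraries was 0.211, 0.125 and 0.410 over 9725 genes of at least 10 CPM, but 0.0318, 0.0125 and 0.0775 over all 15730 genes tested. In no other experiment did all 3 pass 0.1. The block is therefore given beside the FOXRED1 results.

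Genes were named by a rule: the 8 factors, the targeted genes and antisense partners, from each of 5 lists the 2 largest passing changes each way (mean over 1 CPM, groups apart), and 3 most alike genes per factor; some genes the rule names are not reported here. The counts of MBTPS2 were looked up after the hairpin match. Factors and lists were chosen with earlier results of these data known. Alternatives were DESeq2 1.42.0 (size factors, Wald test), no filter, the replicate block, a fold of at least 1.5, each library left out, CPM in place of RPKM, and a prior count of 0.5 in place of 2.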

Additional observations from a re-analysis of the deposited data

Results flagged for a closer look

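The effect of a treatment on a factor differed between 2 experiments, by the interaction term of edgeR's quasi-likelihood test, in 6 cases. By the same test, 54.4% of all genes differed between the knockdowns and 35.2% between the diet and TRIM15 effects. Between the YY2 and FOXRED1 knockdowns, the differences on the log2 scale were 0.83 for GATA6, 0.52 for KLF5 and -0.26 for SOX9. Between the diet and TRIM15 effects they were -0.41 for CDX2, -0.36 for GATA6 and -0.26 for SOX9. The experiments also differ in their control cells, and the part of this in the differences was not tested. No group of 4 or more libraries exists in which 1 library could be set against the others by Dixon's criterion, and no file or column was left unused.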

How the results depend on the processing

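With a fold change of at least 1.5 also required, 1, 0, 1 and 1 factors passed under HFD and in TRIM15-OE, YY2-sh and FOXRED1-sh (CDX2 at 1.49-fold and GATA6 in TRIM15-OE at 1.49-fold lie just under it), and 32, 6, 51 and 21 genes of the lists in place of 88, 44, 90 and 50, as did 2037, 296, 6331 and 1702 of all genes in place of 8415, 3474, 11997 and 5752. The factors that passed were the barely expressed TP63 under HFD (mean 1.22 against 1.99 CPM), KLF5 in YY2-sh and GATA6 in FOXRED1-sh. With the replicate block, the factors past the threshold numbered 6, 3, 4 and 5, with CDX2 added in YY2-sh (adjusted p = 0.0408) and CDX2 and KLF5 in FOXRED1-sh, and no other call of a factor changed. All genes past the threshold then numbered 8265, 3589, 12132 and 6793. In no experiment did every treated library correlate best with the control library of its own number. With 1 library left out, the factors past the threshold ranged from 5 to 6 under HFD and 3 to 3 in TRIM15-OE. They ranged from 3 to 5 in YY2-sh (5 without YY2-sh replicate 3, CDX2 and GATA4 added) and 3 to 4 in FOXRED1-sh. The difference counts ranged from 2 to 4 (knockdowns; 2 with no filter, SOX9 lost) and 3 to 3 (diet and TRIM15), and the control differences from 36 to 38.

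Changes of sign occurred only in values that had not passed the threshold. For GATA4 the log2 change with 1 library left out ran from -0.040 to 0.042 under HFD (0.012 with no filter) and from -0.070 to 0.014 in TRIM15-OE. For GATA6 in YY2-sh it ran from -0.032 to 0.025 (-0.0089 with no filter). The knockdown difference ran from -0.16 to 0.045 for CDX2 (0.012 with no filter), and was 0.020 for FOXA2 with no filter. The diet and TRIM15 difference of HNF4A ran from -0.15 to 0.29. With 1 library of a group left out, the lone pair is assumed to vary like the rest. The cause of these shifts was not tested.

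List counts that moved by more than 1.5 times when 1 library was left out are given beside them above. All genes called in TRIM15-OE ranged from 2034 (without TRIM15-EV replicate 3) to 5100, and by DESeq2 the columnar factors in YY2-sh numbered 7 in place of 11. CDX2 in FOXRED1-sh passed with no filter (adjusted p = 0.0375). Ordering by CPM in place of RPKM left 44 of 64 ranks as they were. Depth limits HNF4A and TP63 most.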
